A study of Mus musculus with 6 samples.

Results

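The cells described here are pituitary barcodes that carried messenger RNA of Sox2, Cyp2f2 or Aldh1a2, taken from droplet single-cell RNA sequencing of mouse pituitaries. A barcode was a member when it held at least 200 genes, at most 25% mitochondrial UMIs and at least 3 UMIs summed over those 3 genes. A UMI is a tag that lets each captured RNA molecule be counted once. To leave out hormone cells, Gh had to be under 30%, Prl under 10%, Pomc under 5%, Lhb and Fshb together under 1% and Tshb under 0.5% of its UMIs. Members were thus chosen by the measured UMIs of the 3 marker genes and of the hormone genes. The rule found 398 members among 10305 pituitary barcodes and 23083 barcodes in the 6 libraries of the series. They were 212 barcodes in the stress library, 4.17% of the kept pituitary barcodes there (3.63% to 4.75%), and 186 in the control library, 3.61% (3.11% to 4.15%). These exact Clopper-Pearson 95% intervals overlap.

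The series compared the hypothalamic paraventricular nucleus, the pituitary and the adrenal gland between stressed and unstressed mice. The stress group was C57BL/6 mice, 10 weeks old, after 21 days of chronic social defeat, a procedure in which a mouse is repeatedly exposed to a dominant aggressor. The control group was unstressed C57BL/6 mice of the same age. The labels name no transgene in either group. Each pituitary library held the pooled pituitaries of 5 mice, which had been perfused with cold saline, dissociated with papain at 37°C and loaded on the same chip. With 1 library per group there is no replicate, so no test between stress and control was possible. Every interval below covers counting error only and says nothing about differences between mice.

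The stress library held 53244403 UMIs in 5103 barcodes and the control library 50024887 in 5202 barcodes. The members contributed 2147869 UMIs in the stress library and 1692257 in the control library. Their median depth was 7620 and 7221.5 UMIs per barcode, against 10028 and 9685 in all other kept barcodes of the stress and control libraries. The median mitochondrial share was 4.15% in stress members and 4.50% in control members, above the 2.44% and 2.63% of the other barcodes. The libraries had 39 barcode sequences in common, none of them a member in both.

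Sox2 encodes a transcription factor that marks the stem cells of the adult pituitary. These cells line the remnant of the cleft between the anterior and intermediate lobes and can give rise to hormone cells. Folliculostellate cells are non-endocrine, star-shaped cells of the anterior lobe that form a network among the hormone cells and are classically recognised by S100b protein. Aldh1a2 encodes an enzyme that makes retinoic acid, and Cyp2f2 a cytochrome P450 known from airway club cells.

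Levels are given as CPM (counts per 1000000), the UMIs of a gene scaled to 1000000 UMIs summed over the cells of a set. The rule genes set the members apart by construction. Sox2 was at 710.5 CPM in stress members and 683 CPM in control members, against 6.00 and 6.25 CPM in the other barcodes. Cyp2f2 was at 2292 and 1909.9 CPM in stress and control members, and Aldh1a2 at 495 and 501 CPM. All 3 rule genes were found together in 148 stress and 124 control members. Sox2 was the only one of them in 20 stress and 20 control members, and 5 members of each library had no Sox2 UMI.

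Markers of pituitary stem cells that the rule did not name were also high in the members, as a description and not a test. Sox9, a transcription factor partner of Sox2 in this lineage, was at 172 CPM in stress members and 176 CPM in control members, against 1.43 and 0.955 CPM elsewhere. Mia, which encodes a small secreted protein, reached 4124 and 3897 CPM against 21.1 and 20.4 CPM. The serum carrier gene Lcn2 reached 1304 and 801 CPM, Cpxm2 452 and 402 CPM, Rbpms 758 and 653 CPM and Fxyd1 171 and 174 CPM. The folliculostellate name was not borne out by its classical marker. S100b had 5 UMIs in 1 stress member and 0 UMIs in control members, where a count of 0 allows up to 1.77 CPM. The members are therefore called marker-positive cells below.

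Endothelial and macrophage markers were low in the marker-positive cells. The 7 endothelial markers summed to 6.98 CPM in stress members and 14.8 CPM in control members, against 10127 and 9092 CPM in endothelial barcodes, with 2 and 1 of the 7 at 0. The 7 macrophage markers summed to 12.1 and 10.6 CPM, with 1 and 2 at 0. The 7 fibroblast markers summed to 131 CPM in stress members and 149 CPM in control members, close to the 173 and 137 CPM of the other barcodes. The median Gh share of a barcode was 3.80% in stress members and 2.93% in control members, against 6.62% and 5.41% in endothelial barcodes. The rule itself limits Gh, and the part of free RNA in these shares was not tested.

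**Figure D1:**
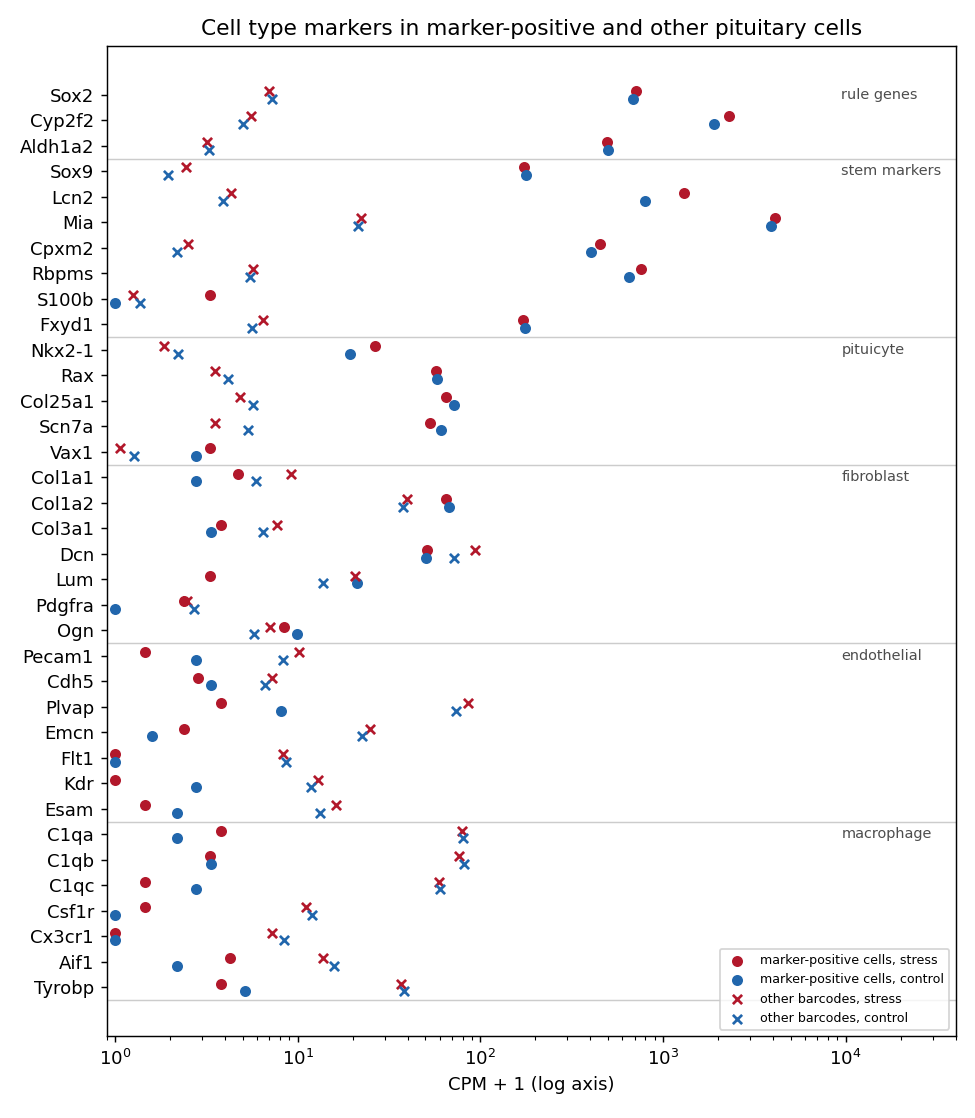
CPM plus 1 on a log axis for the marker genes of the rule and of 5 other classes, in marker-positive cells (circles) and all other kept pituitary barcodes (crosses), with the stress library in red and the control library in blue. Sox9, Lcn2, Mia, Cpxm2, Rbpms and Fxyd1 lie far to the right of the crosses, whereas S100b, at 2.33 CPM in stress members and 0 in control members, does not.

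The minimum of 3 UMIs cut through a range of levels. Just inside it, barcodes with exactly 3 rule UMIs had 225 CPM of Mia in the stress library (14 barcodes) and 475 CPM in the control library (12 barcodes). Just outside it, barcodes with 2 rule UMIs had 735 CPM in the stress library (18 barcodes) and 389 CPM in the control library (19 barcodes). Barcodes with 12 or more, 156 in the stress library and 126 in the control library, had 4563 and 4450 CPM. Members nearest the minimum were thus as low in Mia as barcodes just below it. Not every marker went this way. Fxyd1 was at 197 and 205 CPM with 3 rule UMIs in the stress and control libraries, against 168 and 162 CPM with 12 or more. Sox9 was at 160 and 36.5 CPM with 2 rule UMIs in the stress and control libraries. It was at 103 and 51.3 CPM with 3, and at 183 and 188 CPM with 12 or more. A hormone limit left out 17 marker-positive barcodes of the stress library and 20 of the control library, most by Gh (9 and 14).

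The 20 genes with the highest ratio of marker-positive cells to other barcodes are named by rank among genes found in at least 25% of the members of each library. After Cyp2f2 came the noncoding transcript Gm16136, the ATP-gated channel gene P2rx2 (51.2 and 51.4 CPM in stress and control members) and the water channel gene Aqp4 (87.1 and 88.0 CPM). A second water channel gene, Aqp3, was at 192 and 254 CPM. The enzyme genes were the aldehyde dehydrogenase Aldh3a1 (203 and 264 CPM), the lipoxygenases Alox15 (160.2 and 173 CPM) and Alox12e (173 and 206 CPM), and the sphingolipid desaturase Degs2 (82.9 and 103 CPM). The set also held Ccdc190, Lcn2, Cpxm2, the cadherin Cdh26, the kallikrein-related peptidase Klk11, the adhesion gene Mpzl2, Fam46b, Gm266, Klhl31, Aldh1a2 and Hey2, a transcriptional repressor induced by Notch (81.0 and 78.0 CPM). Lcn2 was the only one of these 20 past 1.5-fold between stress and control.

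The marker-positive cells fell into 4 clusters, described by their leading genes. Hormone, immediate-early, heat-shock, mitochondrially encoded, haemoglobin and sex-linked genes had been kept out of the clustering. Cluster 1 held 117 stress and 95 control cells and had Tac1, which encodes substance P, and Aqp3 among its leading genes. It had the highest Aldh1a2, at 756 CPM in stress cells and 794 CPM in control cells. Cluster 2 held 70 stress and 55 control cells and had Anxa1, Fxyd3 and the tight junction gene Cldn4 among its leading genes, with Krt17 and Krt19 further down. It had the highest Cyp2f2, at 3557 and 2728 CPM in stress and control cells, and low Aldh1a2, at 188 and 186 CPM.

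The 2 smaller clusters stood apart from that pattern. Cluster 4, with 16 stress and 16 control cells, was led by Scn7a, Lrrtm3, Fndc3c1, Col13a1, Gldc, Rax and Col25a1, with Fgf10 also high. All of its 32 cells had at least 3 UMIs of the pituicyte markers, the glia of the posterior lobe, against 1 cell of cluster 1 and none of clusters 2 and 3. It is called pituicyte-like. Its cells had Sox2 at 450.0 CPM in the stress library and 532 CPM in the control library, but Aldh1a2 and Lcn2 at 0 in both libraries. Cluster 3, with 9 stress and 20 control cells, was led by the secretory and neuronal genes Snap25, Rasd1, Nnat and Chga. Its rule genes were low, with Sox2 at 291 and 374 CPM in stress and control cells. Its median depth of 9718 UMIs was the highest of the 4 clusters, and its somatotrope markers summed to 130706 CPM against 27091 CPM in cluster 1. It was left unnamed. Whether its barcodes held more than 1 cell was not tested.

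**Figure D2:**
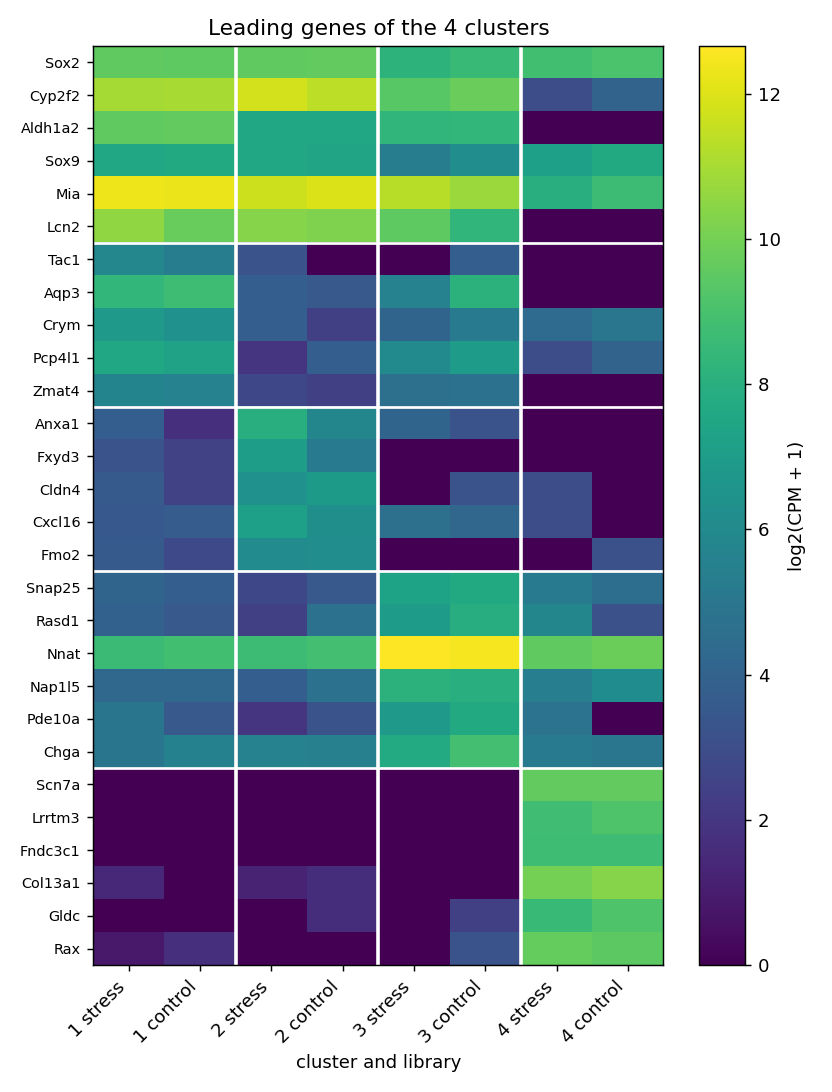
Colour gives log2(CPM + 1) for the rule genes, Sox9, Mia, Lcn2 and leading genes of each cluster (rows), with each cluster split into its stress and control cells (columns). Clusters 1 and 2 share Sox2, Cyp2f2, Sox9, Mia and Lcn2, while the pituicyte-like cluster 4 keeps Sox2 and Sox9 and lacks Aldh1a2 and Lcn2.

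Most genes were close to level between stress and control in the marker-positive cells. A gene was compared when it had at least 100 UMIs over both libraries, and a ratio of at least 1.5 in either direction (0.58 on the log2 scale) was taken as past the fold. Of 5659 genes compared, 84 were past it higher in stress (1.48%) and 96 lower (1.7%), 3.18% in either direction. These counts depend on the processing: after thinning each cell to 2000 UMIs they were 463 higher and 592 lower, and with a minimum of 400 UMIs per gene 15 and 12. The median log2 ratio of stress over control was 0.00, against -0.11 for the same genes in all other barcodes. Within clusters 1 and 2, 80 of 4985 genes were past it higher (1.6%) and 53 lower (1.06%). Genes named below by size of difference were taken from the 10 higher and 10 lower ones whose 95% interval lay farthest from 0.

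**Figure D3:**
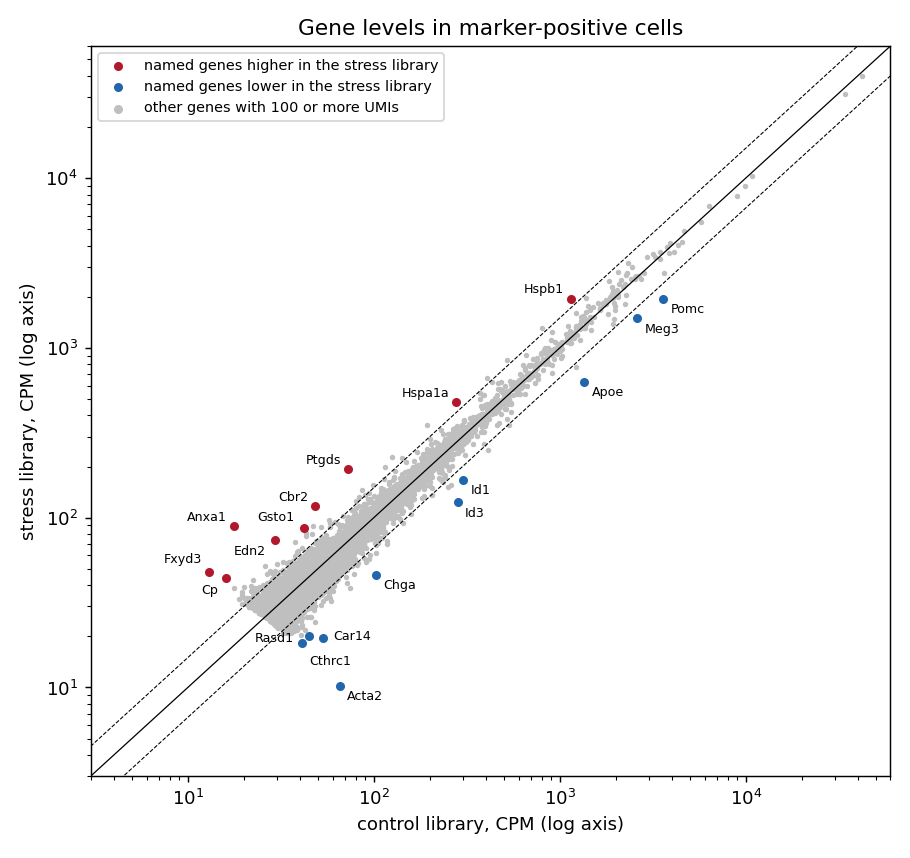
CPM of each compared gene in the marker-positive cells of the stress library (vertical, log axis) and of the control library (horizontal, log axis), with the line of equality and dashed lines at 1.5-fold. Red points are genes named as higher and blue points genes named as lower in stress; of 5659 genes, 180 lie outside the dashed lines.

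Heat-shock genes were higher in stress across the list. They encode chaperones that bind unfolded proteins, and many are driven by the factor HSF1. All 13 compared genes had a ratio above 0, against 50% of all compared genes. Of these, 5 were past 1.5-fold higher, beside the 1.48% of all genes, and none was past it lower. The median log2 ratio was 0.54, beside 0.00 over all genes compared. In the other barcodes the median of the same 13 genes was 0.35, with 11 above 0, against 22.6% of all genes compared there. The list had been written with earlier results of these data known, so its direction is a description.

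Hspb1, the small heat-shock protein gene (ENSMUSG00000004951, chromosome 5, 135887919 to 135889563, plus strand, GRCm38), was the most abundant of those past the fold. It was at 1944 CPM in stress members and 1146 CPM in control members, a log2 ratio of 0.76 (0.68 to 0.84). The median over single cells was 1488 CPM in stress members and 882 CPM in control members. It was 0.75 in cluster 1 and 0.47 in cluster 2. Hspa1a, the inducible Hsp70 gene (ENSMUSG00000091971, chromosome 17, 34969190 to 34972156, minus strand), was at 480.5 CPM in stress members and 277 CPM in control members, with a log2 ratio of 0.79 (0.63 to 0.95). Hspa1b, its near-identical neighbour, can share its reads, so the split between the pair is uncertain. Dnajb1, an Hsp70 co-chaperone gene, was at 227 and 125 CPM (0.85, 0.62 to 1.10), and the Hsp110 gene Hsph1 at 78.2 and 43.1 CPM (0.85, 0.45 to 1.28) in stress and control members. Hsp90aa1, the inducible Hsp90 gene, was at 849.7 and 520.0 CPM (0.71, 0.59 to 0.83). Lowest in the list was Chordc1 at 41.9 and 36.0 CPM in stress and control members (0.21, -0.27 to 0.71), whose interval spans 0.

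The same genes were higher in stress outside the marker-positive cells, and some by more. Hspa1a was at 316 CPM in stress and 44.3 CPM in control over all other barcodes, a log2 ratio of 2.84. In somatotropes it was at 259 CPM in stress and 28.3 CPM in control, and in endothelial barcodes at 2455 and 713 CPM. Hspb1 in the other barcodes was at 65.9 CPM in stress and 28.5 CPM in control, a ratio of 1.21. With that of the other barcodes subtracted, the ratio of Hspa1a in marker-positive cells was -2.04 and that of Hspb1 -0.45. The part of free RNA and of dissociation at 37°C in these values was not tested.

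The promoters of Hspb1, Hspa1a and Hsph1, heat-shock genes past the fold, are shown with matches to the core of the heat shock element. The letters searched were GAANNTTC and TTCNNGAA, each its own reverse complement, so that both strands are covered. Windows run from 250 bases before to 50 bases after the gene start (RefSeq, GRCm38.p6), and capitals mark the matches. Of the 13 compared heat-shock genes, 10 had an entry and 7 of these a match in any of their entries. Some genes had more than 1 entry, and a window of Hspd1 overlaps that of Hspe1. Over all 32851 entries of the same length, 15.1% held a match. That share is per entry and the count of 7 is per gene, so they are not like for like. A match is a description of the letters and not a binding site. Hspb1, chr5:135887669-135887968, plus strand, held 2 matches, Hspa1a, chr17:34972107-34972406, minus strand, held 1, and Hsph1, chr5:149636266-149636565, minus strand, held 3, of which the last 2 overlap. Neither entry of Dnajb1 held one, and Hsp90aa1 is named only.
Hspb1: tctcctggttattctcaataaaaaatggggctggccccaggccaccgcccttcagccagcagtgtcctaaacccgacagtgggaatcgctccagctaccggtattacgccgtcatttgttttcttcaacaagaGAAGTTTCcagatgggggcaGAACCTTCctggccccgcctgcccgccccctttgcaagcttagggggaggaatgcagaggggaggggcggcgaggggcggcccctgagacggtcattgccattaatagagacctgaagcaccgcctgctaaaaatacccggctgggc
Hspa1a: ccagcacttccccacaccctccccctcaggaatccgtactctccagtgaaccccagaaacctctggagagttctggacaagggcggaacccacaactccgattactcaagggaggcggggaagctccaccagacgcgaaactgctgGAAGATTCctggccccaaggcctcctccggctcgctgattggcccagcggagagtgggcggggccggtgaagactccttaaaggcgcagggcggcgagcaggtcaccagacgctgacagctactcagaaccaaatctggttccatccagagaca
Hsph1: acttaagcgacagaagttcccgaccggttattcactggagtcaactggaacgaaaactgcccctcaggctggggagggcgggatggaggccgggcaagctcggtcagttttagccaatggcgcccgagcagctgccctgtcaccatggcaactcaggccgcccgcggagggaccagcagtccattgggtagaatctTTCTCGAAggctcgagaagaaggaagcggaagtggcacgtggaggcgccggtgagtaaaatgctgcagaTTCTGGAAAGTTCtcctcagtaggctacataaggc

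Immediate-early genes, which switch on within minutes of a stimulus, were abundant in marker-positive cells in both libraries. The list summed to 17902 CPM in stress members and 14951 CPM in control members, against 2459 and 1236 CPM in the other barcodes. In endothelial barcodes it summed to 10456 CPM in stress and 6038 CPM in control, and in macrophage barcodes to 5299 and 3784 CPM. Fos was at 3148 CPM in stress members and 2338 CPM in control members, and Jun at 2368 and 2076 CPM. Of 19 genes compared, 18 had a ratio above 0 and 2 were past 1.5-fold higher, Fosb (199 and 115 CPM, 0.80, 0.55 to 1.05) and Egr2 (96.4 and 57.3 CPM, 0.75, 0.39 to 1.11). Over all compared genes, 50% were above 0 and 1.48% past the fold higher. The exception was Socs3, an inhibitor of cytokine signalling, at 278 CPM in stress members and 293 CPM in control members (-0.07, -0.25 to 0.10). The median was 0.22, against 1.06 for the same genes in the other barcodes.

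The clusters differed in these genes, although they had been left out of the clustering. In cluster 1, all 19 had a ratio above 0, against 47.4% of the genes compared there, with a median of 0.47. In cluster 2, 5 of 17 did, against 53.1%, with a median of -0.29. Atf3, a stress-induced transcription factor gene, was at 582 CPM in stress and 326 CPM in control cells of cluster 1 (0.83, 0.63 to 1.04). In cluster 2 it was at 483 CPM in stress and 879 CPM in control cells (-0.86, -1.08 to -0.65). Over all control members, 1 barcode held 117 of its 761 UMIs. The Atf3 ratio over all members was 0.12, and 0.27 without the top barcodes. Junb was 0.36 (0.26 to 0.45) in cluster 1 and -0.42 (-0.53 to -0.30) in cluster 2, and Fos 0.57 and -0.11. The heat-shock genes did not split in this way, with medians of 0.50 in cluster 1 and 0.55 in cluster 2. The difference between clusters was not tested, since each had 1 pool per group.

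Lcn2 was higher in stress in cluster 1, the larger of the main clusters. It encodes lipocalin 2, a secreted carrier of iron-binding molecules (ENSMUSG00000026822, chromosome 2, 32384633 to 32388252, minus strand). It was at 1304 CPM in stress members and 801 CPM in control members, a log2 ratio of 0.70 (0.61 to 0.80). Per cell, the median was 931 CPM in stress members and 509 CPM in control members. The ratio was 0.85 (0.72 to 0.97) in cluster 1 and 0.14 (-0.01 to 0.30) in cluster 2. Of the 10 compared stem cell markers outside the rule, the epithelial cadherin gene Cdh1 was also past 1.5-fold. It was at 48.4 and 29.5 CPM in stress and control members (0.71, 0.21 to 1.23). That made 2 of the 10 past the fold higher, beside the 1.48% of all genes. The other 8 lay within the fold, among them Sox9 (-0.04, -0.26 to 0.19), Epcam (0.09, 0.01 to 0.17) and Krt8 (0.27, 0.11 to 0.43).

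In the retinoid list, Aldh1a1 and Aldh1a2 were level. The Aldh1a enzymes turn retinaldehyde into retinoic acid, a ligand of nuclear receptors. Aldh1a1 was at 191 CPM in stress members and 192 CPM in control members (-0.01, -0.22 to 0.21), and Aldh1a2, a gene of the rule, at -0.02 (-0.15 to 0.12). Crabp2, which carries retinoic acid to the nucleus, was at 69.4 and 55.0 CPM in stress and control members (0.33, -0.05 to 0.73). Aldh1a1 and Aldh1a2 were the 2 of the 7 genes compared with a ratio below 0. The other 5 were above it, against 50% of all genes. The median over the 7 genes compared was 0.33, against 0.05 in the other barcodes.

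Among the genes with the widest differences, Anxa1, Fxyd3 and Gsto1 were leading genes of cluster 2. Some of the differences rested in part on 1 barcode. Anxa1, which encodes a glucocorticoid-induced anti-inflammatory protein, was at 88.9 CPM in stress members and 17.7 CPM in control members, a log2 ratio of 2.31 (1.77 to 2.93). Of its 191 UMIs in stress members, 109 lay in 1 barcode of cluster 2. Without the barcode holding most of its UMIs in each library, the ratio was 1.24 (0.62 to 1.94). That stress barcode also held 74 of the 250 UMIs of the carbonyl reductase gene Cbr2, which was at 116 CPM in stress and 48.5 CPM in control members (1.26, 0.90 to 1.64) and at 0.82 without it. Fxyd3, a regulator of the sodium pump, was at 48.0 CPM in stress and 13.0 CPM in control members (1.86, 1.21 to 2.62) and at 1.82 without the top barcodes. Gsto1, a glutathione transferase, was at 86.6 and 42.0 CPM (1.04, 0.64 to 1.46) in stress and control members. The copper carrier gene Cp, which encodes ceruloplasmin, was at 44.2 and 15.96 CPM (1.45, 0.84 to 2.15).

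Edn2, a vasoconstrictor peptide gene, was higher in stress in cluster 1, while its interval in cluster 2 spanned 0. It was at 73.6 CPM in stress members and 29.5 CPM in control members (1.31, 0.85 to 1.80). Only 9.91% of stress and 5.91% of control members held any Edn2 UMI. In each library 1 barcode of cluster 1 held many of them, 54 of 158 in stress and 17 of 50 in control members. Without these barcodes the ratio over all members was 1.30 (0.73 to 1.92). In cluster 1 Edn2 was at 124 CPM in stress and 33.8 CPM in control cells (1.86, 1.30 to 2.51), and in cluster 2 at 15.8 and 19.1 CPM (-0.29, -1.68 to 1.17). Ptgds, the prostaglandin D synthase gene, rested in part on 1 barcode. It was at 192 CPM in stress and 72.7 CPM in control members (1.40, 1.11 to 1.71), but 196 of its 413 UMIs in stress members lay in 1 barcode of cluster 3. Without the top barcodes its ratio was 0.56 (0.23 to 0.90), within the fold.

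**Figure D4:**
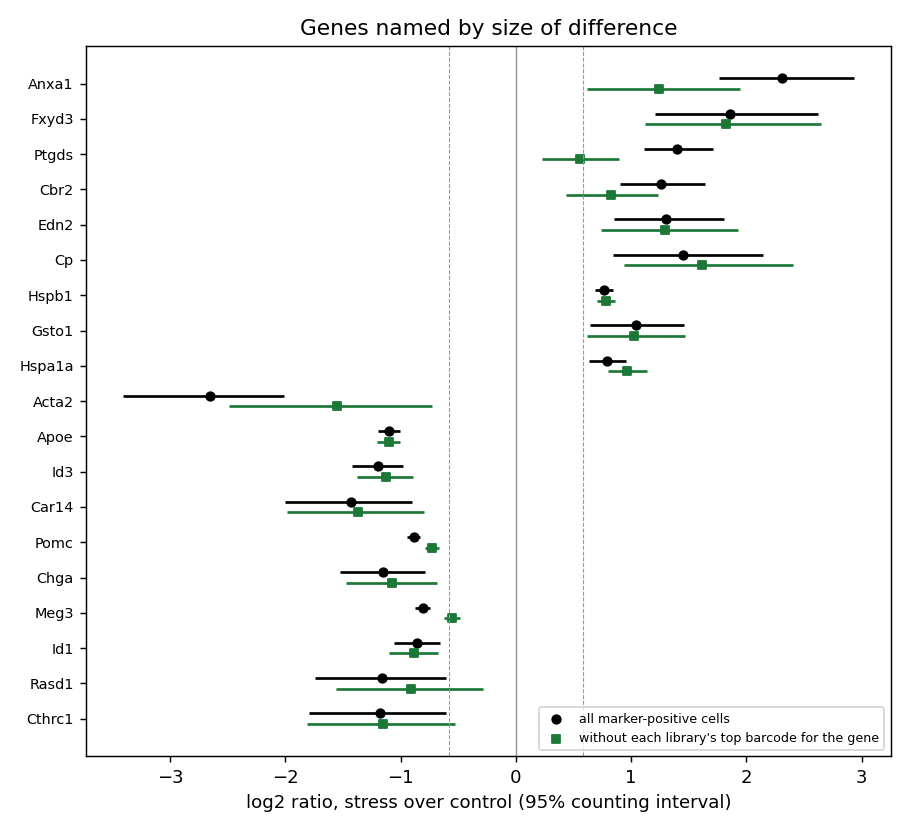
Log2 ratio of stress over control with its 95% counting interval for the genes named by size of difference, over all marker-positive cells (black circles) and without the barcode that holds most of the gene's UMIs in each library (green squares), with dashed lines at 1.5-fold. Anxa1, Ptgds and Acta2 move most, Ptgds and Meg3 come to lie within the dashed lines, and Hspb1, Apoe and Id1 hardly move.

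Apoe was lower in stress in both main clusters. It encodes apolipoprotein E, a lipid carrier made by glia and macrophages (ENSMUSG00000002985, chromosome 7, 19696109 to 19699188, minus strand). It was at 631 CPM in stress members and 1353 CPM in control members, a log2 ratio of -1.10 (-1.198 to -1.002). The median per cell was 191 CPM in stress members and 522 CPM in control members. It was lower in stress in cluster 1 (-1.18, -1.34 to -1.01) and cluster 2 (-1.49, -1.77 to -1.22), and at 4576 CPM in stress and 8447 CPM in control cells of the pituicyte-like cluster. Over all other barcodes it was at 836 CPM in stress and 740.2 CPM in control. Among these, the ratio was 0.54 (0.51 to 0.56) in macrophage barcodes and -0.23 (-0.29 to -0.17) in somatotropes, at 106 CPM in stress and 125 CPM in control. The 7 macrophage markers summed to 12.1 CPM in stress members and 10.6 CPM in control members, and the part of macrophage RNA in the Apoe values was not tested.

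Id genes were lower in stress in cluster 1. They encode inhibitors of basic helix-loop-helix transcription factors and respond to BMP signals. Id3 was at 123 CPM in stress members and 282 CPM in control members (-1.20, -1.42 to -0.98), Id1 at 167 and 303 CPM (-0.86, -1.06 to -0.66) and Id2 at 252 and 410.1 CPM (-0.70, -0.87 to -0.54). Id4 was within the fold at -0.16 (-0.36 to 0.05). In cluster 1, Id3 was at 132 CPM in stress and 505 CPM in control cells (-1.93, -2.21 to -1.67). In cluster 2 it was the other way round, at 115 CPM in stress and 65.7 CPM in control cells (0.79, 0.19 to 1.45). Id1 likewise was at -1.19 in cluster 1 and 0.28 in cluster 2, while Id2 was below 0 in both, at -0.79 and -0.54. In control members, 98 of the 478 Id3 UMIs lay in 1 barcode of cluster 1. In stress members, 44 of the 264 Id3 UMIs lay in 1 barcode of cluster 2. The difference between the clusters was not tested.

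These 3 genes were the only ones past 1.5-fold lower among 19 compared pituitary development factors, beside the 1.7% of all genes. Past it higher were the Krüppel-like factor genes Klf4 (81.5 and 43.1 CPM in stress and control members, 0.91, 0.52 to 1.33) and Klf5 (92.7 and 57.9 CPM, 0.67, 0.32 to 1.04). Klf4 was at 1.14 in the other barcodes. Factors of the pituitary lineage lay within the fold, with Lhx3 at -0.14, Pax6 at -0.11, Six3 at 0.44 and Isl1 at -0.48. The list median was -0.02.

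The remaining named lower genes belonged to the smaller clusters, to hormone RNA or to single barcodes. Meg3, an imprinted noncoding RNA, was at 1492 CPM in stress and 2617 CPM in control members (-0.81), but at 0.00 in cluster 1 and 0.02 in cluster 2, and 838 of its 4429 control UMIs lay in 1 barcode of cluster 3. Chga, a granule protein gene, was at 46.1 and 103 CPM (-1.15) and Rasd1, a small G protein gene, at 20.02 and 44.9 CPM (-1.16), both leading genes of cluster 3, which had 9 stress and 20 control cells. Car14 (19.6 and 53.2 CPM, -1.43) and Cthrc1 (18.2 and 41.4 CPM, -1.18) were leading genes of the pituicyte-like cluster, where they were at 228 and 671 CPM and at 235 and 501 CPM in stress and control cells. Pomc, which the rule itself limits, was at 1944 CPM in stress and 3593 CPM in control members (-0.89), and without the hormone limits its ratio reversed to 0.40. The control barcode that led Meg3 also held 960 of the 6081 Pomc UMIs of control members. Pomc was at 6871 and 9303 CPM in endothelial barcodes of the stress and control libraries, above the level of the members. Acta2, smooth muscle actin, was at 10.2 CPM in stress and 65.6 CPM in control members (-2.65), with 71 of its 111 control UMIs in 1 barcode of cluster 2 and a ratio of -1.55 without the top barcodes. The 6 pericyte and smooth muscle markers, Acta2 among them, summed to 13.5 CPM in stress and 69.7 CPM in control members.

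Glucocorticoid-responsive genes lay on both sides of 0. These genes answer the hormone that the axis releases from the adrenal cortex. Of 18 compared, 12 had a ratio above 0, against 50% of all genes, with a median of 0.21 against -0.11 in the other barcodes. Of the 18, 3 were past the fold in either direction, beside 3.18% of all genes. Anxa1 and Lcn2 were past 1.5-fold higher and the kinase gene Sgk1 past it lower, at 60.5 CPM in stress and 95.1 CPM in control members (-0.65, -0.997 to -0.31). The metallothionein genes Mt1 (2776 and 3630.1 CPM, -0.39, -0.44 to -0.34) and Mt2 (1385 and 1935 CPM, -0.48, -0.55 to -0.41) and the leucine zipper gene Tsc22d3 (318 and 392 CPM, -0.30, -0.46 to -0.15) were lower within the fold. Fkbp5, a receptor co-chaperone gene, was at -0.22 (-0.62 to 0.18). The glucocorticoid receptor gene Nr3c1 was level, at 112 and 109 CPM in stress and control members (0.04, -0.24 to 0.32). Hsd11b1, which regenerates active corticosterone inside cells, was at 473 and 545 CPM (-0.21, -0.34 to -0.08), against 6.54 and 6.75 CPM in the other barcodes.

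None of 10 Notch, 10 Wnt, 3 Hippo, 11 EGF, FGF, BMP and TGF-beta and 8 interleukin-6 family genes was past 1.5-fold in either direction, beside 3.18% of all genes, so the share was near the background. Their medians were -0.07, 0.06, 0.11, 0.03 and 0.14 in that order. The Notch target Hes1 was at 1107 CPM in stress and 1277 CPM in control members (-0.21, -0.29 to -0.12), and the receptor gene Notch2 at 170.4 and 225 CPM (-0.40, -0.61 to -0.19). In the Wnt list the secreted inhibitor Sfrp5 was lowest (116 and 157 CPM, -0.44, -0.69 to -0.18) and the effector Ctnnb1 highest (182 and 142 CPM, 0.36, 0.12 to 0.59). The transcription factor gene Cebpb, a target of interleukin-6, was at 328 and 229 CPM (0.51, 0.33 to 0.70). Of 14 paracrine ligand genes, the neutrophil attractant Cxcl1 was past the fold higher (72.2 and 37.8 CPM, 0.93, 0.50 to 1.38) and Nppc, C-type natriuretic peptide, lower (41.4 and 71.5 CPM, -0.78, -1.20 to -0.38). So was the growth factor binding protein gene Igfbp7 (54.0 and 82.7 CPM, -0.61, -0.98 to -0.25). For Cxcl1, 27 of the 64 UMIs in control members lay in 1 barcode, and its ratio without the top barcodes was 1.55 (1.03 to 2.13). Igfbp5, the most abundant of the list, was at 2542 and 2740.1 CPM.

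In the epithelial, folliculostellate and redox lists, counts past the fold are set beside the 3.18% of all genes in either direction. Of 21 adhesion genes compared, Cdh1 and the keratin gene Krt7 (62.4 and 38.4 CPM, 0.69, 0.26 to 1.15) were past 1.5-fold higher and the laminin receptor gene Itga6 (23.7 and 37.8 CPM, -0.67, -1.23 to -0.12) lower, with a list median of 0.09. Of 13 folliculostellate genes, Anxa1 alone was past the fold, and the gap junction gene Gja1 was at 73.1 and 75.05 CPM in stress and control members (-0.04, -0.38 to 0.31). Glul, the glutamine synthetase gene, was at 1275 and 1466 CPM (-0.20, -0.28 to -0.12). Of 24 detoxification and redox genes, Cbr2 was past the fold higher and the catalase gene Cat lower (39.1 and 59.1 CPM, -0.59, -1.03 to -0.16). Gstm1, the most abundant of them, was at 3911 and 3767 CPM (0.05). None of 10 transport and 11 matrix genes was past the fold.

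**Figure D5:**
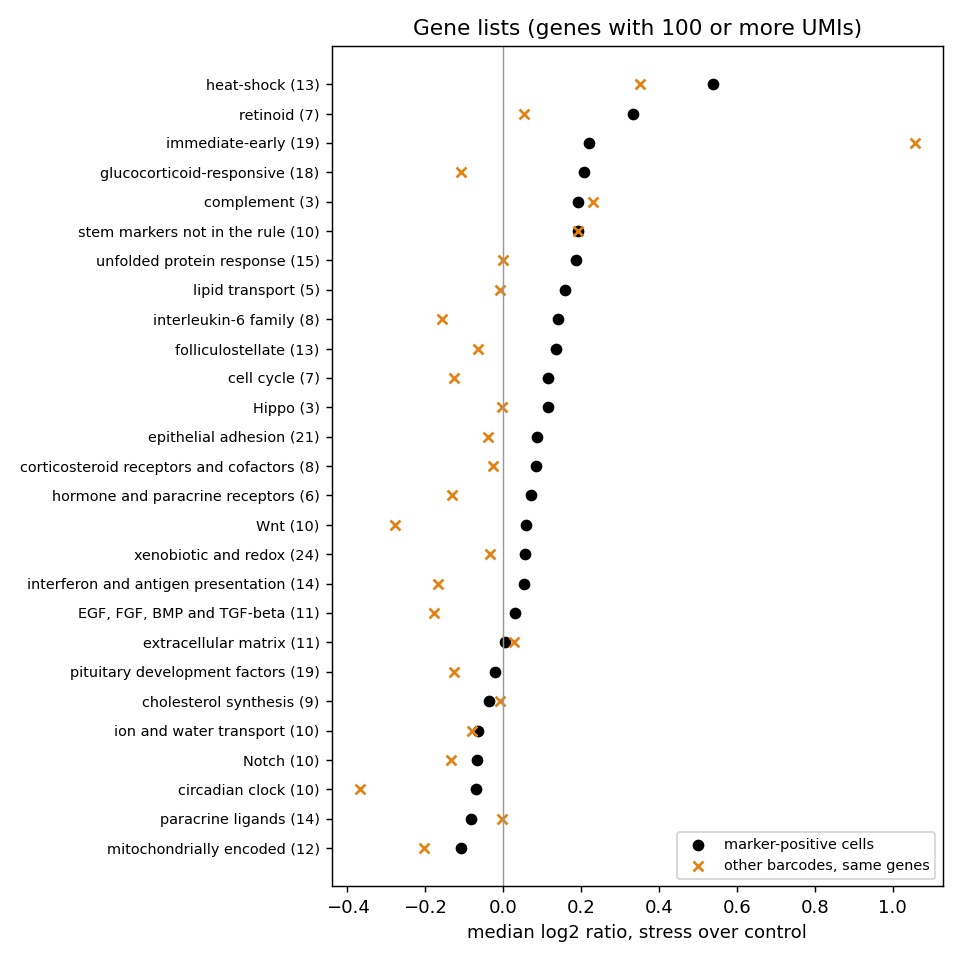
Median log2 ratio of stress over control for each gene list with at least 3 compared genes (number in brackets), in marker-positive cells (black circles) and for the same genes in all other barcodes (orange crosses). The heat-shock list lies highest in marker-positive cells at 0.54, and the immediate-early list lies farthest from its cross, at 0.22 against 1.06.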

How the data were processed

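Pituitary cells of 1 stress and 1 control pool were profiled with 10x Genomics version 2 chemistry. The deposited values are raw UMI counts per gene and barcode. Cell Ranger 2.1.1, Scanpy and the build mm10 are named in the submitters' processing notes. Counts of the members were summed per library and given as CPM, and the log2 ratio of stress over control used sums plus 0.5 with an exact conditional 95% interval. Genes with at least 100 UMIs over both libraries were compared, and 1.5-fold was the call. Named genes were the 10 higher and 10 lower ones with the interval farthest from 0, the 20 highest over other barcodes and list members past 1.5-fold. Others are list or marker members. A few genes that meet these rules are not reported here. The members and 28 gene lists were chosen with earlier results of these data known. Leiden clustering of 1000 genes used 20 components, 15 neighbours and resolution 0.3 (scanpy 1.11.5, igraph 0.11.9, Python 3.11.15, numpy 2.4.6, scipy 1.17.1, pandas 2.3.3). Doublets were not removed in the main values; leaving out the barcodes with the highest Scrublet scores, 5 stress and 5 control members, was an alternative. Barcodes over the mitochondrial limit numbered 15 in the stress and 45 in the control library. The scripts were tested on simulated data. Coordinates come from GENCODE for GRCm38 and promoters from RefSeq.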

Additional observations from a re-analysis of the deposited data

Results flagged for a closer look

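For 4 genes the log2 ratio of stress over control in marker-positive cells lay past 1.5-fold on one side and that of the other barcodes on the other side. None of these differences was tested. Acta2 was at -2.65 in marker-positive cells and 0.88 in the other barcodes. Maff, a small Maf transcription factor gene, was at 24.7 CPM in stress and 38.4 CPM in control members, a ratio of -0.64, against 0.63 in the other barcodes. The MHC class II genes H2-Aa and H2-Eb1 were higher in stress over all members, but not in cluster 1. H2-Aa was at 132 CPM in stress and 83.3 CPM in control members, a ratio of 0.66, against -0.78 elsewhere. H2-Eb1 was at 89.9 CPM in stress and 47.3 CPM in control members, a ratio of 0.92, against -0.69 elsewhere. In cluster 1 the ratio was -0.18 for H2-Aa and -0.21 for H2-Eb1, and in cluster 2 it was 0.24 and 0.57. One stress barcode of cluster 3 held 101 of the 283 UMIs of H2-Aa in stress members and 84 of the 193 of H2-Eb1. Without the top barcodes H2-Aa was at 0.13, within the fold.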

How the results depend on the processing

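No paired analysis was possible because each condition had 1 library. For the 6 main results, 61 values under the alternatives kept their direction and size within the limits set, 20 moved and 1 reversed. For named genes and other lists, 580 kept them, 126 moved and 13 reversed. The causes were not tested. The control share was 3.01% with at least 6 rule UMIs. The count of higher genes, 84, became 463 after thinning to 2000 UMIs, 233 after subtracting the ratio of the other barcodes, 219 with a minimum of 50 UMIs and 15 with 400. The count of lower genes, 96, became 55 with at least 6 rule UMIs, 53 in clusters 1 and 2 (chosen after seeing the data), 592 after thinning, 146 with the mean of each cell's own CPM, 303 with 50 UMIs and 12 with 400. The immediate-early median, 0.22, was 0.31 with at least 2 rule UMIs, 0.17 with 6, 0.29 without hormone limits, 0.18 with Gh under 10%, 0.19 in clusters 1 and 2, 0.29 after thinning, 0.31 with own CPM, 0.28 without top barcodes and -0.91 after subtracting the other barcodes. That subtraction gave 0.11 for heat-shock genes, -0.45 for Hspb1, -2.04 for Hspa1a, -0.085 for complement and 0.10 for mitochondrially encoded genes. Folliculostellate genes were at -0.020 with Gh under 10%, -0.023 without barcodes holding other markers and -0.056 without cluster 3. Retinoid genes were at -0.0057 with 400 UMIs, epithelial adhesion at -0.039 after thinning and xenobiotic genes at -0.017 without barcodes holding other markers. Car14 was at 0.94 in clusters 1 and 2, Pomc at 0.40 without hormone limits and Cthrc1 at 0.025 after thinning. Over all alternatives Apoe ranged between -1.28 and -1.06 and Id3 between -1.47 and -0.79.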

Other observations

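Of 15 compared genes of the endoplasmic reticulum stress response, 11 had a ratio above 0, against 50% of all genes compared in marker-positive cells. Beside the 1.48% of all genes past 1.5-fold higher, 1 of the 15 was, namely Sdf2l1, a chaperone cofactor of that compartment, at 59.1 CPM in stress and 37.8 CPM in control members (0.64). The median was 0.19, against 0.00 over all genes. Of 9 cholesterol synthesis genes, Hmgcs1, an early enzyme of the pathway, was past the fold lower, at 54.5 CPM in stress and 91.0 CPM in control members (-0.74). Of 14 interferon and antigen presentation genes, 1 was past the fold higher, H2-Aa (0.66), and 1 lower, beside 1.48% and 1.7% of all genes. Without the top barcodes H2-Aa was at 0.13. The lower one was Ifit1, an interferon-induced gene, at 21.4 CPM in stress and 37.2 CPM in control members (-0.79). All 12 compared mitochondrially encoded genes were below 0, with a median of -0.11, against -0.20 in the other barcodes. Past the fold among them were mt-Atp8 (22.8 and 38.4 CPM in stress and control members, -0.75) and mt-Nd4l (105 and 158 CPM, -0.59). None of 10 circadian clock, 7 cell cycle, 8 corticosteroid receptor and cofactor, 6 hormone receptor, 3 complement and 2 cold-inducible genes was past 1.5-fold. Beside the 3.18% of all genes past it in either direction, that share was near the background.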
